A study of Saccharomyces cerevisiae with 18 samples.

Results

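The gene set described here is the 26S proteasome of budding yeast together with RPN4, the transcription factor of its genes. Its members were taken by gene symbol from the probe annotation of the array. They are 32 listed subunit genes and RPN4, 33 of the 5650 genes measured. All 33 were found, each on 1 probe. By position in the complex they comprise 7 genes of the 20S alpha ring, 7 of the 20S beta ring, 6 ATPases of the 19S base, 4 other base subunits and 8 lid subunits.

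The study asked how ethanol stress changes transcript levels in the parent strain W303-1A and in its ethanol tolerant mutants SM1 and CM1. Cultures of each strain, inoculated from unstressed late exponential cells, were given 0 or 6.5 % v/v ethanol, which makes 6 groups. Each group held 3 separate cultures, and each culture was hybridised on 1 two-colour array against a common pool of RNA from the W303-1A cultures at 0 % ethanol. The genetic changes behind SM1 and CM1 and the sampling time were not given in the sources used here. The W303-1A arrays at 0 % ethanol therefore compare a culture with a pool that contains its own RNA, and the mutants share the W303-1A background.

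The proteasome degrades proteins that have been marked with ubiquitin. Its 20S core is a barrel of alpha rings, which form the gate, and beta rings, which hold the protease sites, while the 19S cap recognises, unfolds and deubiquitinates the substrate. In yeast Rpn4 binds a shared element in the promoters of most subunit genes, and the Rpn4 protein is itself a short-lived substrate of the proteasome, so that subunit transcripts are tied to proteasome activity by a feedback loop.

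Values below are log2 ratios of a culture over the pool, read from the deposited log ratios, and differences between groups are log2 differences ± the standard error of a limma fit to all 18 arrays (n = 3 arrays per group). A gene rose or fell where its Benjamini-Hochberg adjusted p over all 5650 genes was under 0.05. Replicate 1 of every group was dye-swapped and its sign was turned, so the values of a group are given in the order swapped array, then the 2 normal arrays. The direction of the ratio is likely rather than stated. After turning, HSP12, a small heat shock gene, stood at 7.01, 8.12 and 7.92 in W303-1A with ethanol, so that the 3 arrays had the same sign. If the swapped arrays were not turned, 0 of the 5650 genes passed for ethanol in W303-1A. A smooth trend along the probe number took up between 5.42 and 32.4 % of the variance of an array. The array of CM1 replicate 2 with ethanol stood apart, with HSP12 at 2.14 against 4.83 and 4.25 on the other CM1 arrays with ethanol and the lowest array weight of all (0.216). The swapped arrays with ethanol had weights almost as low, 0.242 in W303-1A, 0.285 in SM1 and 0.291 in CM1. All other arrays had weights of 0.495 or more. Intensities were not used here, so precision rests on the number of arrays.

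RPN4 rose with ethanol in W303-1A. In the fit described above it did not pass in either mutant, though it passed in some other settings given below. In W303-1A its ratio was -0.40, -0.09 and -0.27 without ethanol, and 1.18, 1.34 and 1.37 with ethanol. The lowest array with ethanol lay far above the highest without, and the difference was 1.55 ± 0.45 (limma adjusted p = 0.0215, 95 % interval 0.59 to 2.52). It was nearly the same on the swapped arrays (1.58) and on the normal arrays (1.54). Leaving out 1 array ended the call for W303-1A replicate 1 (1.36, limma adjusted p = 0.0834) or 3 (1.59, adjusted p = 0.0507) without ethanol and replicate 2 (1.48, adjusted p = 0.0664) or 3 (1.47, adjusted p = 0.0708) with ethanol. The call was also lost once the probe-number trend was subtracted (1.13, limma adjusted p = 0.075) and without the 6 swapped arrays (1.54, adjusted p = 0.0948).

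In SM1 the RPN4 ratio was 0.20, 0.07 and -0.08 without ethanol, and 1.88, 1.21 and 0.84 with ethanol. These groups did not overlap either, but the difference of 1.25 ± 0.45 did not pass (limma adjusted p = 0.149, 95 % interval 0.28 to 2.21). In CM1 it was 0.50, 0.39 and 0.42 without ethanol, and 1.72, -0.39 and 2.12 with ethanol. Of these, replicate 2 with ethanol lay below every CM1 array without ethanol, while the other 2 lay well above them. The CM1 difference was 0.71 ± 0.45 (limma adjusted p = 0.405, 95 % interval -0.25 to 1.68). Without that array RPN4 passed in both mutants, at 1.25 in SM1 (limma adjusted p = 0.00649) and at 1.47 in CM1 (adjusted p = 0.00441), the residual spread being shared between all groups. Without either of the other 2 CM1 arrays with ethanol the CM1 difference shrank, to 0.48 without replicate 1 (limma adjusted p = 0.607) and to 0.16 without replicate 3 (adjusted p = 0.873). With array weights RPN4 passed in SM1 (1.10, limma adjusted p = 0.0125) and in CM1 (1.30, adjusted p = 0.0166). In a fit to the SM1 groups alone it passed in SM1 (1.25, limma adjusted p = 0.0383).

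**Figure D1:**
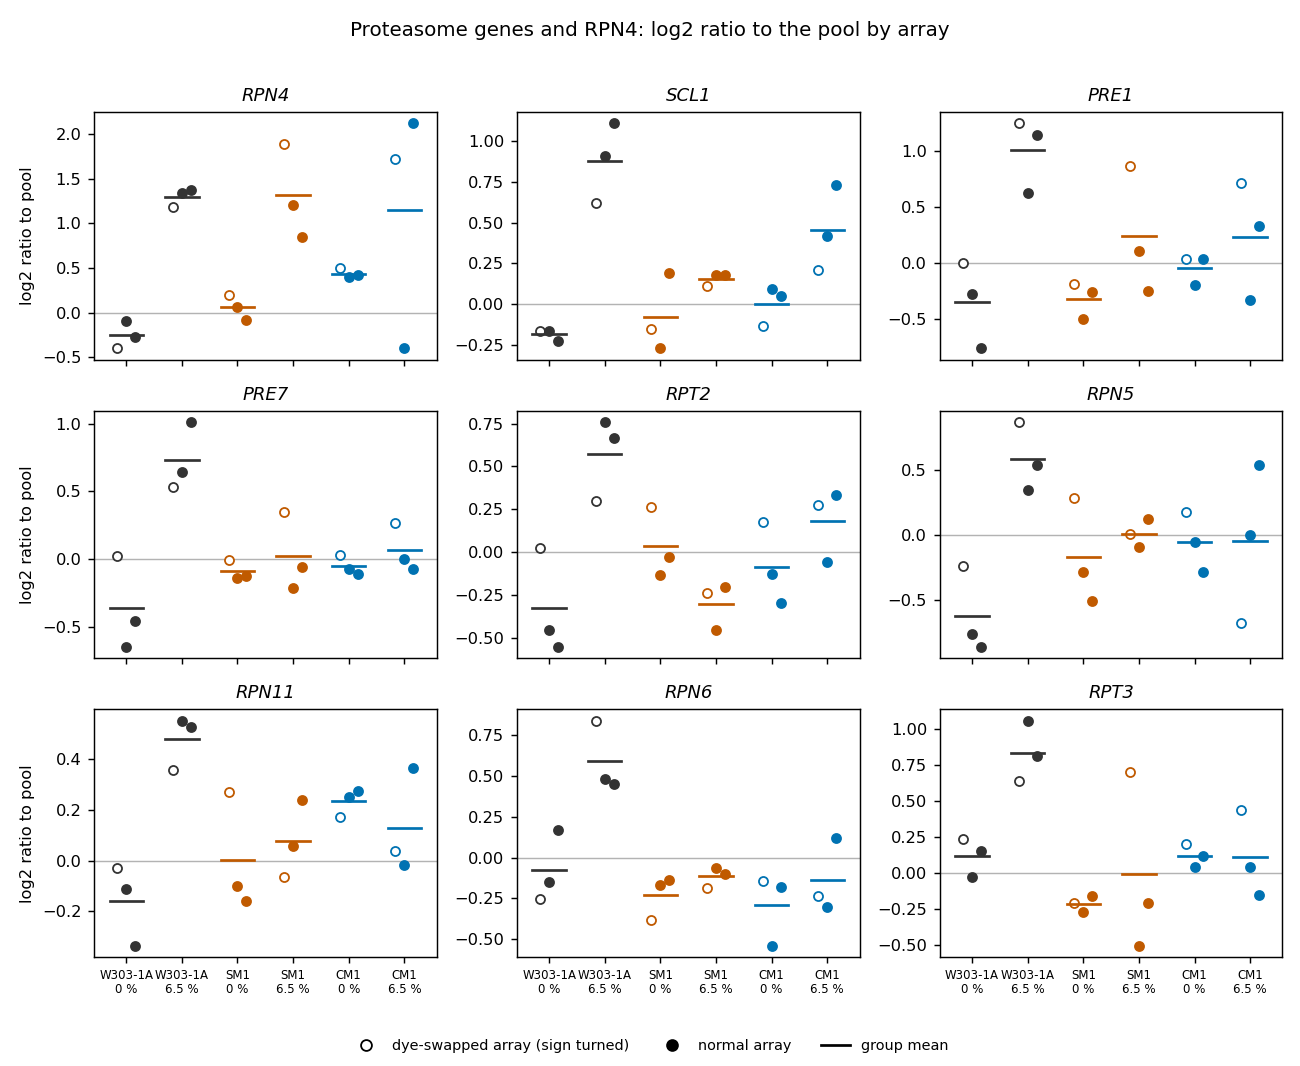
Log2 ratio to the pool on each array (y axis) for RPN4 and other proteasome genes in the 6 groups (x axis, strain and ethanol). Open circles are dye-swapped arrays with the sign turned, filled circles are normal arrays and bars are group means; the W303-1A arrays with ethanol lie above those without in the genes that rose, and CM1 replicate 2 with ethanol lies at -0.39 for RPN4.

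Among the proteasome genes of W303-1A 9 of 33 rose with ethanol and 0 fell, where 10.2 % of all genes rose and 13.6 % fell. The 9 were RPN4 and 8 subunit genes from the alpha ring, the beta ring, the ATPases and the lid. The median difference over the 33 was 0.19 against 0.03 over all genes, and 26 of the 33 lay above 0, against 51.7 % of all genes. Without 1 array the members' median ran from 0.17 (W303-1A replicate 3 with ethanol left out) to 0.30 (W303-1A replicate 1 at 0 % left out). Ratios of the 9 genes did not overlap between ethanol and none, and all 9 were higher in both dye orientations. Both traits were read on the same arrays that gave the calls, so they are no separate support. Higher in both orientations were 16 of the 33 members and lower 5, where 33.2 % of all genes were higher and 33.9 % lower. Over all 33 members, 11 were higher without overlap and 0 lower, where 12.1 % of all genes were higher and 14.3 % lower without overlap.

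In the alpha ring 1 of 7 genes rose. SCL1, an essential alpha subunit, was at -0.16, -0.17 and -0.22 without ethanol and at 0.62, 0.91 and 1.11 with it. Both groups were tight and well separated, and the difference was 1.06 ± 0.19 (limma adjusted p = 0.000973). The lowest of the ring was PRE5, at -0.31, 1.37 and 0.99 without ethanol and -0.71, 0.87 and 1.13 with it, where the groups overlapped and the swapped arrays stood below the normal ones (-0.25 ± 0.26, limma adjusted p = 0.546). PRE9, which encodes the alpha subunit that yeast can live without, had 0.44 ± 0.22 and PRE10, another alpha subunit, 0.33 ± 0.21. The other 3 alpha genes, PRE8, PRE6 and PUP2, lay between 0.04 and 0.05.

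In the beta ring 2 of 7 genes rose, and both encode subunits without a protease site. PRE1 was at -0.0010, -0.27 and -0.76 without ethanol and at 1.25, 0.62 and 1.14 with it. Its difference of 1.35 ± 0.26 (limma adjusted p = 0.00146) was the highest among the subunits that passed. PRE7 was at 0.02, -0.65 and -0.46 without ethanol and at 0.53, 0.64 and 1.01 with it, again with no overlap (1.09 ± 0.21, limma adjusted p = 0.0016).

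The 3 genes of the catalytic beta subunits did not pass. PRE3, which carries the caspase-like site, stood at 0.53 ± 0.29 with limma adjusted p = 0.209. PRE2, which carries the chymotrypsin-like site, was at -0.51 ± 0.53. PUP1, which carries the trypsin-like site, was at -1.39, -2.06 and 2.66 without ethanol and -1.33, -1.71 and -0.43 with it. That single high array sets its group apart, and the interval of the PUP1 difference ran from -3.61 to 1.82. The structural genes PUP3 (0.30 ± 0.22) and PRE4 (0.05 ± 0.24) did not pass either.

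Among the ATPases that unfold the substrate and feed it into the core, 2 of 6 rose. RPT2, whose product helps to open the gate of the core, was at 0.02, -0.45 and -0.56 without ethanol and at 0.30, 0.76 and 0.66 with it. Every array with ethanol was above every array without, and the difference was 0.90 ± 0.22 (limma adjusted p = 0.00708). RPT3 was at 0.23, -0.03 and 0.15 without ethanol and at 0.63, 1.06 and 0.81 with it, and its 0.72 ± 0.25 passed narrowly (limma adjusted p = 0.0494). RPT1 was the lowest, at -0.03, 0.78 and 0.68 without ethanol and -0.74, 0.84 and 0.29 with it, with overlap (-0.35 ± 0.29). RPT4, RPT5 and RPT6 lay between 0.07 and 0.19.

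None of the 4 other base subunits passed for ethanol in W303-1A, where 0 of the 4 had an unadjusted p under 0.05 and the smallest limma adjusted p was 0.246. RPN13, a ubiquitin receptor, was at -1.63, -0.72 and 0.65 without ethanol and at -1.83, 3.19 and 2.21 with it. Its normal arrays with ethanol were high and its swapped array was not, so that a difference of 1.75 ± 1.04 remained uncertain. RPN10, another ubiquitin receptor, was at 0.20 ± 0.25, RPN2, a scaffold of the base, at 0.06 ± 0.20, and RPN1, the scaffold that binds shuttle factors, at -0.17 ± 0.31.

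In the lid 3 of 8 genes rose, and they included the deubiquitinating enzyme of the cap. RPN5, a scaffold subunit, was at -0.24, -0.77 and -0.87 without ethanol and at 0.87, 0.34 and 0.54 with it, a difference of 1.21 ± 0.30 (limma adjusted p = 0.00848). RPN11, the metalloprotease that removes ubiquitin from the substrate, was at -0.03, -0.11 and -0.34 without ethanol and at 0.36, 0.55 and 0.52 with it. Its change was smaller but its arrays were close together (0.64 ± 0.20, limma adjusted p = 0.028). RPN6, which braces the lid against the core, was at -0.26, -0.15 and 0.17 without ethanol and at 0.84, 0.48 and 0.45 with it (0.67 ± 0.21, limma adjusted p = 0.0293). The lowest was RPN9, at -0.51, 0.43 and 0.17 without ethanol and -0.84, 0.47 and -1.08 with it, with overlap (-0.52 ± 0.33). RPN3 (0.30 ± 0.17), RPN7 (0.13 ± 0.54), RPN8 (-0.04 ± 0.26) and RPN12 (0.16 ± 0.56) did not pass.

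Of the 9 calls in the parent, 5 were kept in every one of the 18 fits that left out 1 array, namely SCL1, PRE1, PRE7, RPN5 and RPT2. RPN11 lost its call without W303-1A replicate 2 or 3 of either group (limma adjusted p up to 0.106, difference 0.54 to 0.72). RPN6 lost it without replicate 1 or 2 at 0 % or replicate 1 with ethanol (adjusted p up to 0.121, difference 0.51 to 0.80). The RPN6 call was kept in 3 of the 10 other settings, and its value was 0.30 with the probe-number trend subtracted (limma adjusted p = 0.334) and 0.46 without the swapped arrays (adjusted p = 0.212). RPT3 lost it in 14 of the 18 fits (limma adjusted p up to 0.182, difference 0.56 to 0.94). After subtraction of the probe-number trend 3 members passed, PRE1, SCL1 and PRE10. Of these, PRE10 (0.71, limma adjusted p = 0.0196) was not among the 9. The calls of PRE7, RPN5 and RPT2 were lost in that setting, with RPT2 at 0.47 (adjusted p = 0.284).

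**Figure D2:**
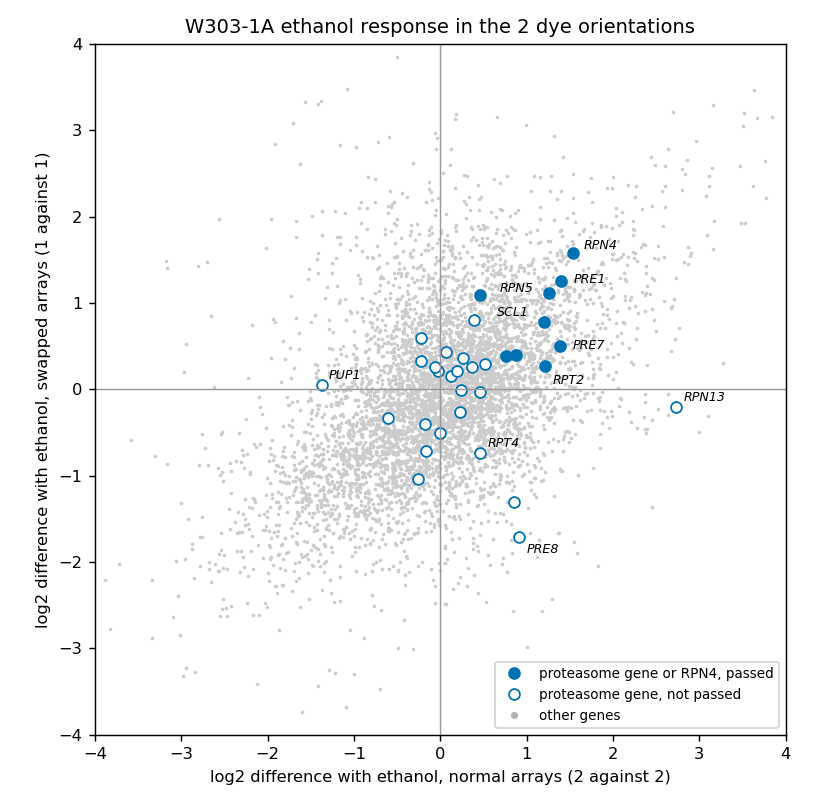
Ethanol response of W303-1A on the normal arrays (x axis, log2 difference, 2 arrays against 2) and on the dye-swapped arrays (y axis, 1 against 1), for the proteasome genes and RPN4 (blue, filled where the gene passed) and all other genes (grey). The 9 genes that passed lie above 0 on both axes, while RPN13 and PRE8 differ between the orientations; 12 genes lie outside the axes.

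The 9 genes that rose in W303-1A had small dye effects on the mean over the 6 groups. The mean gap between the normal arrays and the swapped array of a group was over 1 in size for 9 other members, PRE8, RPN13, PRE2, RPN7, RPT4, PUP1, PRE5, RPN12 and RPT5. The share was 27.3 % of members and 22.3 % of all genes. Among the genes that rose in W303-1A the mean gap was at most 0.47 in size. In single groups the gap was larger, from -1.06 to 0.30 for RPT3 and from -0.68 to 0.95 for RPN5. Residual spread, measured as the SD around the group means and the dye term, had a median of 0.288 over the members and 0.394 over all genes. It ran from 0.114 for RPN3 to 1.80 for PUP1, while RPN4, at 0.605, was noisier than 80.5 % of all genes. PUP1, RPN13, PRE8 and RPT4 had the highest values, between 1.24 and 1.80. For RPT4 a single array, SM1 replicate 1 with ethanol at -5.40, lay far from the 0.55 and 0.43 of the others. For PRE8 the array of CM1 replicate 2 with ethanol was at 5.19 and the swapped one at -2.89.

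In the mutants few subunit genes passed with ethanol. In SM1 0 of 33 members passed by limma, where 2.83 % of all genes rose and 1.26 % fell, although 5 had an unadjusted p under 0.05. The SM1 median was 0.11 against 0.00018 over all genes, and 21 of 33 members lay above 0. That median was 0.022 without SM1 replicate 1 with ethanol, 0.028 without replicate 2 at 0 %, 0.059 without replicate 3 with ethanol, 0.071 without replicate 3 at 0 % and 0.18 without replicate 2 with ethanol. The 8 subunit genes that rose in W303-1A stood between -0.34 and 0.56 in SM1. SCL1 was at -0.15, -0.27 and 0.19 without ethanol and at 0.11, 0.18 and 0.18 with it (0.23 ± 0.19, limma adjusted p = 0.587). PRE7 was at -0.0038, -0.14 and -0.12 without ethanol and at 0.35, -0.22 and -0.06 with it. For both genes the groups overlapped. For RPT2 the groups in SM1 did not overlap and the value with ethanol was the lower, with 0.27, -0.13 and -0.03 without ethanol and -0.24, -0.46 and -0.21 with it (-0.34 ± 0.22, limma adjusted p = 0.461). PRE1 was the highest of the 8 in SM1, at 0.56 ± 0.26 (limma adjusted p = 0.263), with 1.05 on the swapped arrays and 0.31 on the normal ones. The lowest adjusted p in SM1 belonged to RPN8, the partner of Rpn11, at 0.82 ± 0.26 (limma adjusted p = 0.101).

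In CM1 1 of 33 members passed, where 3.88 % of all genes rose and 1.73 % fell, and 6 had an unadjusted p under 0.05. It was PRE10, at 0.01, 0.03 and -0.20 without ethanol and 0.56, 0.59 and 0.90 with it. The groups were clearly apart, but the difference of 0.74 ± 0.21 was just past the threshold (limma adjusted p = 0.0486). In 13 of the 18 fits that left out 1 array, including each CM1 array except replicate 2 with ethanol, PRE10 was no longer past it (limma adjusted p up to 0.195, difference 0.64 to 0.81). The CM1 median was 0.28 against -0.01 over all genes, and 25 of 33 members lay above 0. The median was 0.16 without CM1 replicate 3 with ethanol and 0.46 without replicate 1. On the swapped arrays alone the members' median was -0.042, and on the normal arrays 0.44.

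Subunits that rose in the parent stood between -0.10 and 0.45 in CM1. SCL1 was at -0.13, 0.09 and 0.05 without ethanol and at 0.21, 0.42 and 0.73 with it (0.45 ± 0.19, limma adjusted p = 0.192), without overlap. RPN5 was at 0.18, -0.06 and -0.29 without ethanol and at -0.68, -0.0031 and 0.54 with it, so that the spread within the group was larger than the difference of 0.0049 ± 0.30. The highest values in CM1 without a call were those of PUP1 (2.13 ± 1.27), RPN1 (0.99 ± 0.31) and PRE3 (0.90 ± 0.29). Without CM1 replicate 2 with ethanol, where PUP1 stood at 4.58, PUP1 was at 0.71 and PRE3 at 0.54. Without replicate 1 the values were 3.56 for PUP1, 1.48 for RPN1 and 1.25 for PRE3, and RPN1 and PRE3 then passed.

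**Figure D3:**
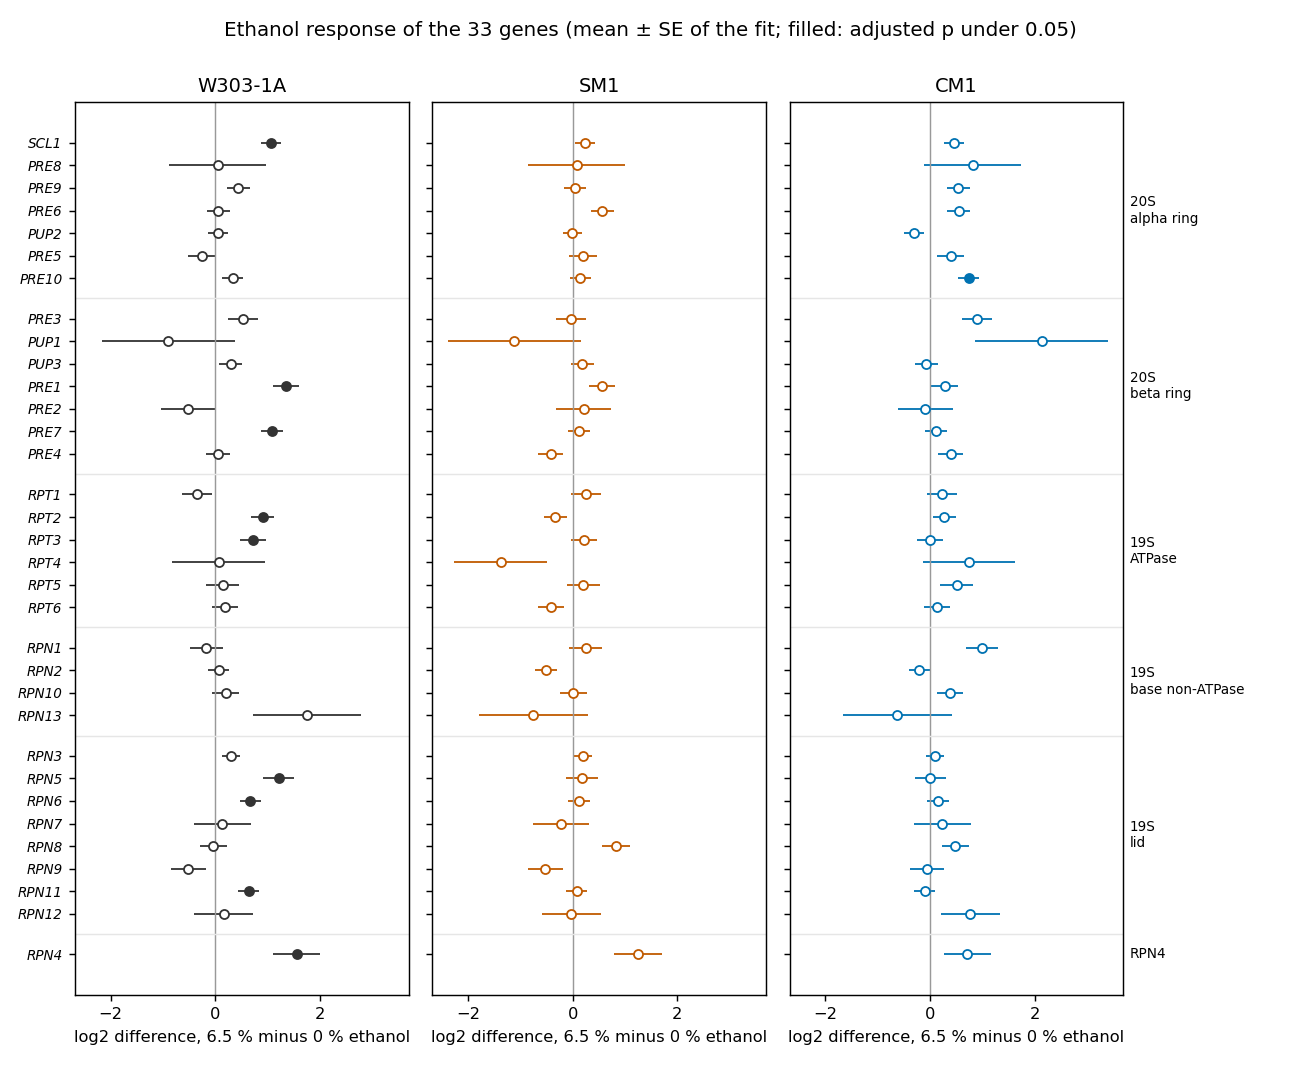
Ethanol response (log2 difference between 6.5 and 0 % ethanol, x axis) of each of the 33 genes in W303-1A, SM1 and CM1, ordered by position in the complex. Points are limma estimates, bars are ± 1 standard error and filled points passed; in W303-1A 9 points are filled, in SM1 0 and in CM1 1 (PRE10).

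Without ethanol no strain difference among the members passed. For SM1 against W303-1A 0 of 33 passed by limma (0.177 % of all genes higher, 1.56 % lower) and 2 had an unadjusted p under 0.05. For CM1 against W303-1A 0 of 33 passed (0.106 % higher, 1.12 % lower), again with 2 at an unadjusted p under 0.05. For CM1 against SM1 0 of 33 passed (0.814 % higher, 0.195 % lower), with 0 at an unadjusted p under 0.05. The members' medians were -0.12, -0.05 and 0.06, and without 1 array they ran from -0.24 to -0.11, from -0.12 to 0.021 and from -0.05 to 0.16. RPN4 without ethanol was ordered W303-1A, SM1, CM1 from low to high, and neither neighbours nor ends differed beyond their spread by the test. SM1 minus W303-1A was 0.32 ± 0.45 (95 % interval -0.65 to 1.28), CM1 minus SM1 was 0.37 ± 0.45 (-0.59 to 1.34) and CM1 minus W303-1A 0.69 ± 0.45 (-0.27 to 1.66). The 3 arrays of CM1 without ethanol did lie above all W303-1A and all SM1 arrays without ethanol.

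With ethanol 8 of 33 members were lower in SM1 than in W303-1A and 0 higher, where 7.19 % of all genes were lower and 10.3 % higher. The median difference was -0.35 against -0.01 over all genes, and 5 of the 33 lay above 0, against 49.6 % of all genes. The 8 were SCL1 and PRE9 of the alpha ring, PRE3 and PRE7 of the beta ring, RPT2, RPT3 and RPN2 of the base and RPN6 of the lid. Of the 8, 5 also rose in W303-1A, a comparison that uses the same W303-1A arrays with ethanol. Over all 33 members, 11 were lower in SM1 without overlap and 0 higher, where 10.8 % of all genes were lower and 14.8 % higher without overlap. In both dye orientations 7 of the 8 were lower in SM1, the exception being RPT3 (0.07 on the swapped arrays, -1.29 on the normal ones). The same arrays gave the 8 calls. Lower in both orientations were 22 of the 33 members and higher 2, where 30.2 % of all genes were lower and 32.1 % higher.

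The ATPase gene RPT2 had the smallest adjusted p. With ethanol it was at 0.30, 0.76 and 0.66 in W303-1A and at -0.24, -0.46 and -0.21 in SM1, on opposite sides of the pool (-0.87 ± 0.22, limma adjusted p = 0.0127). PRE3, the catalytic subunit, was at 0.40, 0.84 and 0.99 in W303-1A and at -0.74, -0.14 and 0.09 in SM1 (-1.0 ± 0.29, limma adjusted p = 0.0277). RPN2, the base scaffold, was at -0.0005, 0.30 and 0.08 in W303-1A and at -0.75, -0.61 and -0.34 in SM1. Unlike the genes above, RPN2 was near the pool in the parent and below it in the mutant (-0.69 ± 0.20, limma adjusted p = 0.0297). PRE9 was at 0.36, 0.61 and 0.68 in W303-1A and at -0.06, -0.20 and -0.06 in SM1 (-0.66 ± 0.22, limma adjusted p = 0.0495). SCL1 (-0.72 ± 0.19, adjusted p = 0.0171), RPN6 (-0.71 ± 0.21, adjusted p = 0.0304), PRE7 (-0.70 ± 0.21, adjusted p = 0.0309) and RPT3 (-0.84 ± 0.25, adjusted p = 0.0313) made up the rest. RPN4 itself did not differ by the test, at 0.01 ± 0.45 (95 % interval -0.95 to 0.98), and it lay between -0.22 and 0.21 without 1 array.

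Each of these 8 calls was lost in some fit that left out 1 array. The count fell to 1 without W303-1A replicate 2 or 3 with ethanol, to 2 without SM1 replicate 2 or 3 with ethanol and to 4 without W303-1A replicate 1 with ethanol. It was 2 with quantile normalization, without the dye term, in a fit to these 2 groups alone, and after subtraction of the probe-number trend.

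With ethanol CM1 differed from W303-1A in 1 member, where 5.29 % of all genes were lower and 6.96 % higher. It was RPN6, at 0.84, 0.48 and 0.45 in W303-1A and at -0.24, -0.31 and 0.12 in CM1 (-0.73 ± 0.21, limma adjusted p = 0.0336). The call was lost without any 1 of the W303-1A arrays with ethanol, or without CM1 replicate 1 or 2 with ethanol (limma adjusted p 0.0562 to 0.126). It was kept in 3 of the 10 other settings. PRE7 was just short of the threshold (-0.66 ± 0.21, limma adjusted p = 0.0501), and the members' median was -0.15 (-0.039 without CM1 replicate 1 with ethanol). CM1 against SM1 with ethanol gave 0 of 33 by limma (1.27 % of all genes higher, 1.17 % lower) and 8 at an unadjusted p under 0.05. The members' median in that comparison was 0.31, with 24 of 33 above 0, and it was 0.34 on the normal arrays and 0.0018 on the swapped ones. RPN4 with ethanol differed by -0.15 ± 0.45 between CM1 and W303-1A and by -0.16 ± 0.45 between CM1 and SM1. Both differences turned sign without CM1 replicate 2 with ethanol, to 0.61 and 0.60, and were -0.70 and -0.71 without replicate 3.

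The test of the difference in response between strains called 1 member. The ethanol response of RPT2 was lower in SM1 than in W303-1A by -1.24 ± 0.31 (limma adjusted p = 0.0275, 95 % interval -1.89 to -0.58), where 1.82 % of all genes were lower and 4.55 % higher. This call was lost in 9 of the 18 fits that left out 1 array (limma adjusted p up to 0.0713, difference -1.48 to -1.11). The arrays concerned were W303-1A replicates 2 and 3 of both groups, all SM1 arrays without ethanol and SM1 replicates 1 and 2 with ethanol. It was also lost with quantile normalization (-1.12, adjusted p = 0.062), without the dye term (-1.24, adjusted p = 0.0725) and after subtraction of the probe-number trend (-0.74, adjusted p = 0.343).

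For the other subunits that rose in W303-1A a difference between strains was not shown by this test. PRE7 (-0.98 ± 0.29, limma adjusted p = 0.0631) and SCL1 (-0.83 ± 0.27, limma adjusted p = 0.0814) came nearest for SM1. For CM1 minus W303-1A 0 of 33 passed by limma (1.2 % of all genes lower, 3.45 % higher), with 6 at an unadjusted p under 0.05, and PRE7 had -0.98 ± 0.29 (adjusted p = 0.0758). For CM1 minus SM1 0 of 33 passed (0.23 % lower, 0.106 % higher), with 2 at an unadjusted p under 0.05. The RPN4 response differed by -0.30 between SM1 and W303-1A (95 % interval -1.67 to 1.06), by -0.84 between CM1 and W303-1A (-2.20 to 0.53) and by -0.54 between CM1 and SM1 (-1.90 to 0.83). The 3 intervals include 0. Without CM1 replicate 2 with ethanol the last 2 differences became -0.082 and 0.22, and without replicate 3 they became -1.39 and -1.09. The first ran from -0.54 to -0.11 without 1 array, the 2 ends being without SM1 replicate 1 and replicate 3 with ethanol.

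Genes that work with the proteasome were read from 4 further lists of 46 genes. In W303-1A with ethanol 4 of 17 ubiquitin, E1, E2 and E3 genes rose and 1 fell, where 10.2 % of all genes rose and 13.6 % fell. UBI4, the polyubiquitin gene, was at -0.13, 0.16 and 0.14 without ethanol and at 1.97, 2.28 and 2.10 with it (2.06 ± 0.21, limma adjusted p = 1.76e-05). The highest difference among the 33 members was the 1.75 of RPN13, which did not pass. The UBI4 probe may also read the ubiquitin fused to ribosomal proteins, whose sequence it repeats. The ubiquitin-conjugating enzyme genes CDC34 (0.95 ± 0.17) and UBC4 (0.75 ± 0.19) and the ligase gene UFD4 (1.01 ± 0.30) rose, and RSP5, a ligase of membrane protein turnover, fell by 0.68. The UFD4 call was lost in 4 of the 18 fits that left out 1 array (limma adjusted p up to 0.122, difference 0.72 to 1.33) and the RSP5 call in 2 (adjusted p up to 0.0702). The calls of UBC4, UFD4 and RSP5 were each kept in 6 of the 10 other settings, and that of CDC34 in 9. UBC4 is nearly identical to UBC5, so its value is uncertain as to the copy.

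Of 12 genes of the Cdc48 segregase and the ubiquitin receptors 4 rose in W303-1A and 0 fell, against the same 10.2 and 13.6 % of all genes. CDC48, the ATPase that extracts ubiquitinated proteins, was at 0.18, -0.78 and -0.79 without ethanol and at 1.37, 0.76 and 0.57 with it (1.36 ± 0.25, limma adjusted p = 0.00109). Its cofactor genes UFD1 (1.28 ± 0.26) and NPL4 (0.92 ± 0.31) rose, as did TMC1, a zinc finger gene (1.57 ± 0.28). The NPL4 call was lost in 11 of the 18 fits that left out 1 array (limma adjusted p up to 0.154, difference 0.75 to 1.15) and kept in 3 of the 10 other settings. It was lost with the replicate block too (adjusted p = 0.0537). Of 13 assembly and associated factors 1 rose and 0 fell, a share no higher than that of all genes. It was SEM1, a small lid subunit that is not among the 33 members (1.05 ± 0.27, limma adjusted p = 0.0106), and its call was lost in 2 of the 18 fits (adjusted p up to 0.0616). Of the 4 regulators of the RPN4 gene, PDR1, PDR3, YAP1 and HSF1, 0 passed by limma and 1 had an unadjusted p under 0.05, PDR1 (0.83 ± 0.31, adjusted p = 0.0643).

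In SM1 0 of the 46 genes passed by limma, where 2.83 % of all genes rose and 1.26 % fell, and 8 had an unadjusted p under 0.05. In CM1 1 passed, where 3.88 % rose and 1.73 % fell. It was RSP5, which fell by 0.71 (limma adjusted p = 0.0333), and the call was lost in 8 of the 18 fits that left out 1 array (adjusted p up to 0.154) and kept in 5 of the 10 other settings. With ethanol UBI4 was at 0.40, 0.56 and 0.45 in SM1 and at 0.60, 0.11 and 0.51 in CM1, above the same strain's arrays without ethanol in SM1 and overlapping them in CM1. In both mutants it stayed below every W303-1A array with ethanol. Its response was lower than the parental one by a log2 difference of -1.36 ± 0.30 in SM1 (limma adjusted p = 0.0161) and -1.57 ± 0.30 in CM1 (limma adjusted p = 0.00985). The first was lost without SM1 replicate 3 at 0 % (-1.30, limma adjusted p = 0.0559) and without the swapped arrays (-1.28, adjusted p = 0.0846), and both were lost with quantile normalization (-0.80, adjusted p = 0.209, and -1.18, adjusted p = 0.0849). With ethanol UBI4, CDC34 and SAN1 (3 of 17) were lower in SM1 than in W303-1A. So were CDC48 and UFD1 (2 of 12) and UBP6 (1 of 13), and 0 genes of the 4 lists were higher. Of all genes 7.19 % were lower and 10.3 % higher. The list medians lay between -0.50 and -0.14. UBI4 and CDC48 kept that call in all 18 fits without 1 array, and the others lost it in 1 to 5. CM1 was lower for UBI4 and CDC48 (5.29 % of all genes lower, 6.96 % higher), with CDC48 lost in 4 of 18 fits.

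**Figure D4:**
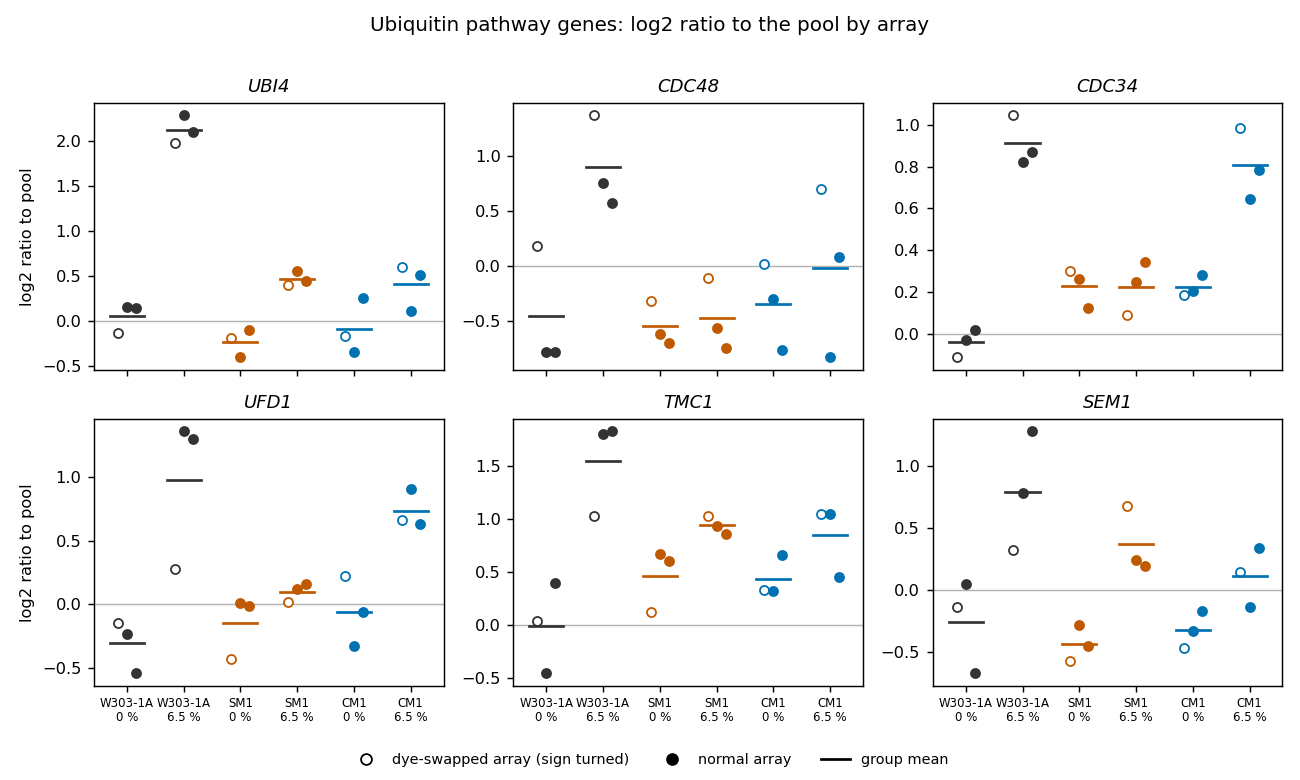
Log2 ratio to the pool on each array (y axis) of 6 genes that act with the proteasome, in the 6 groups (x axis). Open circles are dye-swapped arrays with the sign turned, filled circles are normal arrays and bars are group means; UBI4 lies between 1.97 and 2.28 in W303-1A with ethanol and at 0.60 or below in the mutants.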

How the data were processed

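The data were 18 two-colour arrays, 3 separate cultures for each of 6 groups, per the labels. What the authors deposited are log ratios of the 2 dyes, read here as log2 from values of both signs around 0. Their log base, normalization, centring, background correction and direction are not given in the sources used here. Another base would rescale every value by 1 factor without changing a test. Column medians ran from -0.0041 to 0.030. The labels give the pool the red dye on the 6 swapped arrays and the sample the red dye on the others, so swapped columns were multiplied by -1, read as red over green.

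Of 6368 probes without a missing value, 5673 had 1 symbol, 0 had several and 695 had none. Averaging the 2 probes of 23 genes gave 5650 genes. Genome positions are not printed, since no build is named.

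limma 3.58.1 (R 4.3.3) was fitted to all 18 arrays with group means and a dye orientation term, followed by empirical Bayes moderation, and p-values were adjusted by Benjamini-Hochberg over 5650 genes. The 12 comparisons were ethanol in each strain, strain pairs at each ethanol level, and differences in response, and comparisons share groups. The fit was tested on simulated data. The members and lists were chosen with earlier results of these data known. Values by array were given for RPN4, for each member that passed in any comparison and for the highest and lowest member of each position group in W303-1A. From each other list at most 4 genes were named by smallest p in W303-1A.

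Alternatives were array weights, a replicate block, quantile normalization, array centring, a fit without the dye term, only the groups compared, swapped arrays not turned, subtraction of a loess trend along the probe number, the probe with the largest ratio, and leaving out each array. Fits without the swapped arrays were added after seeing the data.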

Additional observations from a re-analysis of the deposited data

Results flagged for a closer look

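Differences between strains in the ethanol response that passed the limma test of the difference itself are listed here, and all share the W303-1A arrays. In SM1 the response was lower than in W303-1A for RPT2 of the proteasome base (-1.24), for UBI4 (-1.36), for CDC48 (-1.28) and for CDC34 (-0.95). In CM1 it was lower for UBI4 (-1.57). The calls of CDC48 and CDC34 were lost in 12 and 13 of the 18 fits that left out 1 array, with limma adjusted p up to 0.113 and 0.0922, and that of RPT2 in 9. Of the 10 other settings, the CDC48 and CDC34 calls were each kept in 4 and that of RPT2 in 6. The CDC48 call was lost with the replicate block (-1.28, limma adjusted p = 0.0557) and quantile normalization (-0.82, adjusted p = 0.173). It was also lost without the dye term (adjusted p = 0.303), with the probe-number trend subtracted (adjusted p = 0.19) and without the swapped arrays (adjusted p = 0.0877). With ethanol, the SM1 minus W303-1A call of CDC48 was kept in all 18 fits without 1 array and 9 of the 10 other settings. For CDC34 that call was kept in 17 of the 18 fits and 5 of the 10 other settings.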

How the results depend on the processing

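Counts of the 33 members past the limma threshold are compared here, and the cause of each move was not tested. For ethanol in W303-1A the count of 9 became 5 with only the groups compared, 3 with the probe-number trend subtracted and 0 with swapped arrays not turned, and 6 to 9 without 1 array. The 3 with the trend subtracted included PRE10, which was not among the 9. For ethanol in SM1 the 0 became 1 with only the groups compared and 4 with array weights, and 0 to 1 without 1 array. For ethanol in CM1 the 1 became 4 with array weights and without the 6 swapped arrays, a setting chosen after seeing the data. PRE10 was among the 4 with array weights, while without the swapped arrays the 4 were PRE2, PRE3, RPN1 and RPN12 and PRE10 was lost (adjusted p = 0.0701). The count became 0 with quantile normalization, no dye term, the replicate block, only the groups compared, swapped arrays not turned and the trend subtracted, and 0 to 3 without 1 array. For SM1 minus W303-1A with ethanol the 8 became 2 with quantile normalization, no dye term, only the groups compared and the trend subtracted, 3 without the swapped arrays and 0 with them not turned, and 1 to 9 without 1 array. For CM1 minus W303-1A with ethanol the 1 became 2 with centred arrays and with array weights and 4 without the swapped arrays. RPN6 was lost with array weights (-0.49, adjusted p = 0.186) and without the swapped arrays (-0.56, adjusted p = 0.161), where other members passed. The count became 0 with quantile normalization, no dye term, only the groups compared, swapped arrays not turned and the trend subtracted, and 0 to 3 without 1 array. For CM1 minus SM1 with ethanol the 0 became 1 with swapped arrays not turned, 3 without them, and 0 to 3 without 1 array. For the difference in response between SM1 and W303-1A the 1 became 4 with array weights, 2 without the swapped arrays and 0 with quantile normalization, no dye term, swapped arrays not turned and the trend subtracted, and 0 to 2 without 1 array. For CM1 and W303-1A the 0 became 2 with array weights and without the swapped arrays, and 0 to 2 without 1 array. The 3 strain differences without ethanol and the difference in response between CM1 and SM1 stayed at 0 throughout. With swapped arrays not turned, values of genes that had passed turned sign for RPN6 (-0.0601) and NPL4 (-0.0077) with ethanol in W303-1A and for SAN1 between SM1 and W303-1A with ethanol (0.27).

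Over all genes the count for ethanol in W303-1A was 1349, between 933 and 1559 without 1 array and up to 1795 with array weights. Same-numbered arrays did not deviate together once the dye term was subtracted, with correlations between -0.45 and 0.08. The swapped arrays are the replicate 1 arrays, so a deviation shared by replicate 1 is taken out with the dye term. Whether the numbers pair the cultures cannot be told from this check. The replicate block gave 8 members for ethanol in W303-1A, 7 for SM1 minus W303-1A with ethanol and 1 for the difference in response between SM1 and W303-1A. It ended the calls of RPT3 and NPL4 for ethanol in W303-1A, of PRE9 for SM1 minus W303-1A with ethanol, of PRE10 for ethanol in CM1 and of CDC48 for the difference in response between SM1 and W303-1A. Precision is limited by 3 arrays per group, and signal over background was not used here.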
